A study of Hydra vulgaris with 5 samples.

Results

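The Hydra transcript table of this study holds 136 entries, of 46156 in all, whose descriptions name cathepsins, lysosomal enzymes or lysosome components. They were chosen by words in the description alone: cathepsin, lysosom, hexosaminidase, ganglioside GM2 activator, legumain, saposin, acid phosphatase, alpha- or beta-galactosidase, or Niemann-Pick. No measured value entered this rule, but the words were chosen with earlier results of these data known. An entry is one identifier with one description, and the 136 entries carry 129 identifiers, because 6 identifiers occur more than once.

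The study examined how the freshwater polyp Hydra vulgaris rebuilds its head after being cut. Cells of strain 105 were dissociated with the protease Pronase E and captured in droplets, and the 3′ ends of their transcripts were sequenced with the SureCell kit of Bio-Rad. There was 1 library each of tissue regenerating a hypostome, taken 0, 4 and 12 h after bisection, and the intact hypostome, the cone around the mouth at the top of the polyp, gave 2 libraries. The number of polyps behind each library is not given in the sources used here, so the spread between libraries may be technical.

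Lysosomes are acidic compartments in which proteins, sugars and lipids taken up by a cell, or worn out within it, are broken down. Cathepsins cut the proteins, glycosidases such as hexosaminidase trim sugars, and small activator proteins such as the saposins and the GM2 activator lift membrane lipids to the enzymes that degrade them. In Hydra, gland cells release digestive enzymes into the gastric cavity, and the epithelial cells of the endoderm take up the resulting particles and finish the digestion inside the cell. Those endodermal cells are also known as a source of antimicrobial peptides, among them the arminins.

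The entries fall into the following families. Among the proteases there were 18 cathepsin L1-like entries, 6 cathepsin S-like, 4 cathepsin Z-like, 3 cathepsins of another or no stated type, 1 cathepsin B, 1 legumain, 1 lysosomal aspartic protease and 2 lysosomal Pro-X carboxypeptidases. The lipid activators were 5 GM2 activators and 5 saposins. Sugars are the substrates of 12 hexosaminidase, 6 beta-galactosidase, 6 glucosidase and 4 alpha-mannosidase entries, and the other hydrolases were 18 acid phosphatases and 6 acid lipases or thioesterases. The remaining entries were 17 lysosome membrane proteins, 4 Niemann-Pick C1 cholesterol transporters, 3 thiol reductases, 10 entries for organelle biogenesis or trafficking, and 4 glucosylceramidases described as non-lysosomal. The last 14 of these are not lysosomal hydrolases, although the word in their description brought them in. Nor are the membrane proteins, the Niemann-Pick C1 transporters and the lipid activators hydrolases.

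Barcodes with at least 200 detected genes were summed within each library, which gave 2332, 2782 and 64 barcodes at 0, 4 and 12 h, and 110 and 168 in hypostome replicates 1 and 2. One entry, MSTRG.22171, was removed before scaling because it held between 4.63% and 35.6% of the counts of a library. The totals that remained ran from 52713 counts at 12 h to 1605812 at 4 h. Levels are given in CPM, counts scaled to the same total in each library, and are not corrected for transcript length, so they compare libraries rather than genes. The 12 h library stands apart: only 64 of its 4411 barcodes passed the limit, 3 counts in it equal 56.9 CPM, and entries described as reverse transcriptases or transposon products held 9.87% of its counts, against 0.610% to 1.14% in the other 4. Barcodes carry only a running number, so barcodes shared between libraries could not be counted. Doublets were not removed.

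The lysosomal entries made up 1.14% of counts at 0 h (95% exact binomial interval 1.12% to 1.15%), 0.773% at 4 h (0.760% to 0.787%) and 0.167% at 12 h (0.134% to 0.206%). In the hypostome they made up 0.910% (0.859% to 0.963%) in replicate 1 and 0.869% (0.830% to 0.909%) in replicate 2. In these sums the 0 h library was the highest and the 12 h library the lowest, with the hypostome between 0 h and 4 h, an order that changed with the size of the barcodes, as described with the plot by genes detected. These intervals cover counting error only. In such sums, fewer cells of a type and less RNA per cell cannot be told apart.

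Few of the entries carried most of these counts. No count was seen for 22 of the 136 in the barcodes used, 33 had 1 to 9 counts over the 5 libraries, and 23 were seen in every library. The entry with most counts, the cathepsin L1-like MSTRG.9153, held 19.5% of all lysosomal counts, and the 20 entries with the highest mean level held 88.6%. The other 116 had mean levels of at most 56.2 CPM.

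**Figure D1:**
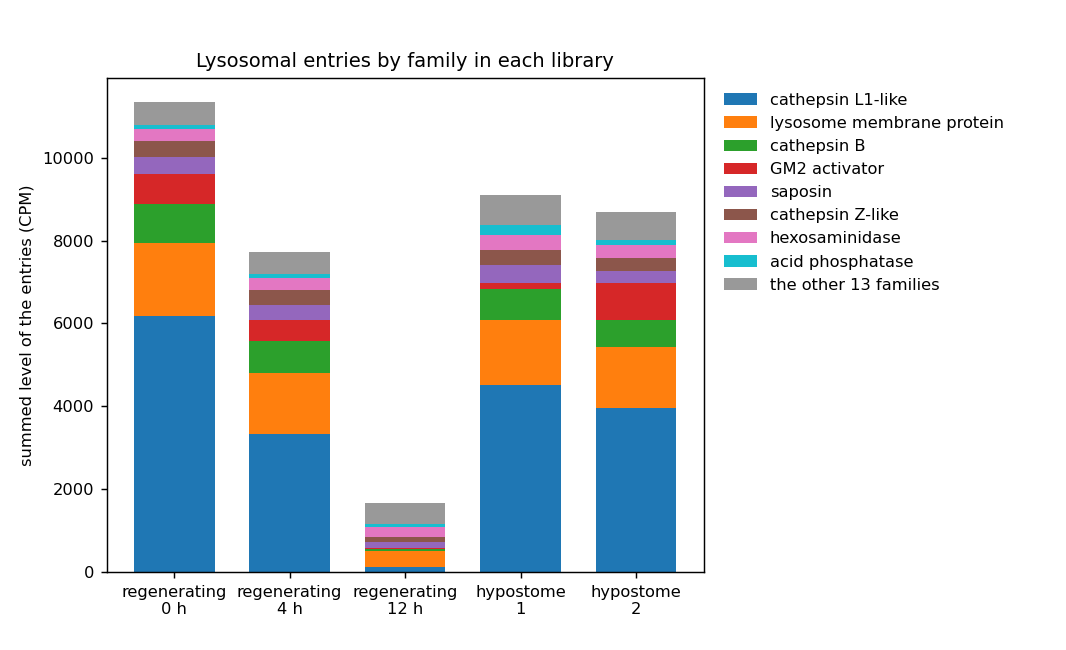
Summed level of the lysosomal entries in each library, in CPM, stacked by family. The cathepsin L1-like block is the largest at 0 h, at 4 h and in both hypostome libraries and nearly vanishes at 12 h, where it sums to 113.8 CPM, against 6171 CPM at 0 h.

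Cathepsin L1-like proteases dominated in 4 of the 5 libraries. Cathepsin L is a cysteine protease of the papain family that degrades proteins in the lysosome. The 18 entries together reached 6171 CPM at 0 h, 3340 CPM at 4 h and 113.8 CPM at 12 h, beside 4512 and 3955 CPM in the hypostome. That was 54.3%, 43.2% and 6.82% of all lysosomal counts in the regenerating libraries, and 49.6% and 45.5% in the hypostome libraries.

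The most counted of them, MSTRG.9153, stood at 2354 CPM at 0 h, 1389 CPM at 4 h and 0 CPM at 12 h, against 2186 and 1657 CPM in the hypostome. Sc4wPfr_1040.g7609 stood at 1452, 626 and 0 CPM at 0, 4 and 12 h, against 943 and 824 CPM in the hypostome. Sc4wPfr_246.g4335 stood at 749.8, 279 and 0 CPM, against 456 and 384 CPM in the hypostome. All 3 were highest at 0 h and lacked counts at 12 h, and the hypostome libraries lay between 0 h and 4 h. Sc4wPfr_246.g4334 and Sc4wPfr_2442.g25376 followed the same order of 0 h first and 4 h below both hypostome libraries, with 586 and 461 CPM at 0 h and 304 and 180.0 CPM at 4 h.

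A further pair of cathepsin L1-like entries behaved differently between 0 h and 4 h. Sc4wPfr_1040.g7621 stood at 285, 293 and 56.9 CPM at 0, 4 and 12 h, against 108 and 257 CPM in the hypostome. MSTRG.14057 stood at 165, 178 and 19 CPM, against 85.0 and 88.9 CPM in the hypostome. For both, the 0 h and 4 h libraries lay above both hypostome libraries and within each other's counting error. Several of these entries have neighbouring names and the same description, and how reads of near-identical copies were divided among them is not given in the sources used here, so the split between single cathepsin L1-like entries is uncertain.

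Cathepsin B, another papain-type protease of lysosomes, had 1 entry, MSTRG.20568, at 944, 769.7 and 37.9 CPM at 0, 4 and 12 h, against 749 and 651 CPM in the hypostome. Of the cathepsin Z-like entries, carboxypeptidases of the same family, MSTRG.1272 stood at 217, 239 and 56.9 CPM, against 216 and 197 CPM in the hypostome, and Sc4wPfr_1085.g19577 at 98.4, 57.3 and 0 CPM, against 92.7 and 74.9 CPM. Apart from 12 h, MSTRG.1272 thus stayed between 197 and 239 CPM. At 4 h cathepsin B was 1.23-fold lower than at 0 h (1.13 to 1.33) and Sc4wPfr_1085.g19577 was 1.72-fold lower (1.30 to 2.28), with intervals for counting error only. The cathepsin S-like entries, unlike these, were highest at 12 h. Their 6 entries summed to 10.7, 6.85 and 152 CPM at 0, 4 and 12 h, against 23.2 and 42.1 CPM in the hypostome, but the 12 h value rests on 8 counts. Legumain, an endopeptidase that processes cathepsins, had 4, 6 and 0 counts at 0, 4 and 12 h, and 0 and 1 in the hypostome.

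The lysosome membrane proteins formed the second largest family. MSTRG.13737, described as lysosome-associated membrane glycoprotein 1 (LAMP1, a main glycoprotein of the lysosomal membrane), stood at 1044, 879 and 189.7 CPM at 0, 4 and 12 h, against 1313 and 1203 CPM in the hypostome. Sc4wPfr_365.g14887, which has the same description, stood at 446, 359 and 133 CPM, against 155 and 164 CPM in the hypostome. The first was higher in both hypostome libraries than in any regenerating library, while the second was higher at 0 h and 4 h than in the hypostome.

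Among the lipid activators, the GM2 activator Sc4wPfr_2387.g9460 stood at 579, 439 and 0 CPM at 0, 4 and 12 h, against 69.5 and 360.4 CPM in the hypostome. Sc4wPfr_1400.g6659, the other abundant GM2 activator, stood at 128, 54.2 and 0 CPM, against 69.5 and 491 CPM in the hypostome. The hypostome replicates differed more for these entries than for the cathepsins. In replicate 2, 1 barcode held 99 of the 105 counts of Sc4wPfr_1400.g6659 and 69 of the 77 counts of Sc4wPfr_2387.g9460. The saposins are cut from a common precursor, prosaposin. The entry for prosaposin-like isoform X2 of MSTRG.19696 stood at 159.6, 142 and 75.9 CPM at 0, 4 and 12 h, against 54.1 and 84.3 CPM in the hypostome, and the entry for isoform X1 of the same identifier stood at 104, 81.6 and 0 CPM, against 193 and 65.5 CPM. Saposin-like Sc4wPfr_1228.g7355 stood at 95.1, 94 and 75.9 CPM, against 154.5 and 93.6 CPM.

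Hexosaminidase, which removes terminal amino sugars, varied less than the cathepsin L1-like and B families. Its 12 entries summed to 269.5, 288 and 247 CPM at 0, 4 and 12 h, against 379 and 314 CPM in the hypostome. The main one, the beta subunit-like MSTRG.26083, stood at 179, 195 and 37.9 CPM, against 193 and 197 CPM in the hypostome. Niemann-Pick C1-like MSTRG.2974, named for a cholesterol exporter of the lysosome, stood at 100.9, 113 and 0 CPM, against 100.4 and 108 CPM, and the non-lysosomal glucosylceramidase MSTRG.22262 at 86.8, 81.0 and 37.9 CPM, against 92.7 and 103 CPM. The 18 acid phosphatase entries summed to 110.0, 100.3 and 75.9 CPM, against 232 and 117 CPM in the hypostome. The alpha-mannosidase entries had 5, 2 and 0 counts at 0, 4 and 12 h, and 0 in either hypostome library.

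**Figure D2:**
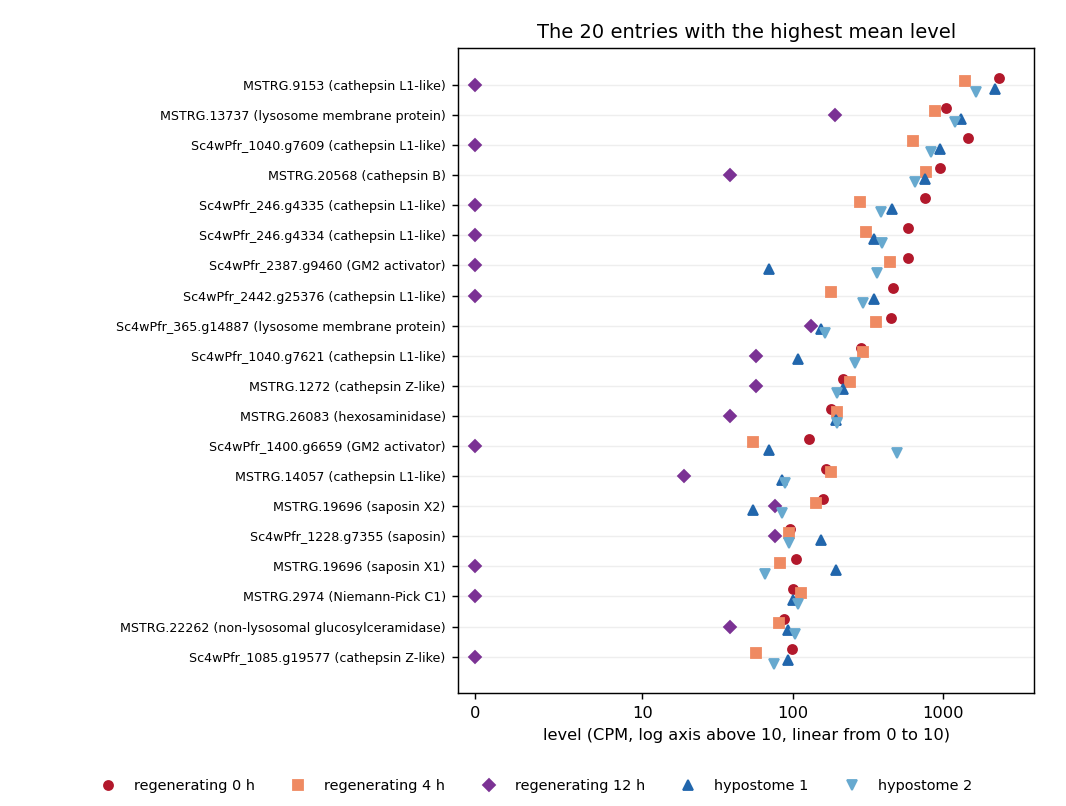
Level in CPM of the 20 entries with the highest mean level in each of the 5 libraries, 1 marker per library. MSTRG.9153 and Sc4wPfr_1040.g7609 have no counts at 12 h, and MSTRG.13737 is highest in the hypostome libraries with 1313 and 1203 CPM.

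The first question was whether regenerating tissue differs from hypostome. No lysosomal entry was called. The 3 regenerating libraries were set against the 2 hypostome libraries by the edgeR quasi-likelihood test with Benjamini-Hochberg adjustment over all 3052 entries tested. It called 0 entries (0.00% higher and 0.00% lower), 339 entries had an unadjusted p under 0.05 (11.1%), and DESeq2 called 100 (0.623% higher and 2.65% lower). Of the lysosomal entries 28 had enough counts to be tested. Their median log2 fold change was -0.24, beside -0.00 over all entries, and 11 had positive and 17 negative values. DESeq2 called 0 of the 28 as well, with 2 at an unadjusted p under 0.05.

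Only 1 of the 28 had an unadjusted p under 0.05 in edgeR, and it is not a lysosomal hydrolase. The non-lysosomal glucosylceramidase MSTRG.5691 stood at 14.9, 11.2 and 0 CPM at 0, 4 and 12 h, against 85.0 and 51.5 CPM in the hypostome. Its log2 fold change was -2.40 with an SE of 0.57 (edgeR, adjusted p = 0.262). It was among 3 of the 28 whose hypostome libraries both lay above all regenerating libraries, where 18.9% of all entries tested did so. For 1 of the 28, an organelle biogenesis subunit (BLOC-1 subunit 2-like MSTRG.17338), the regenerating libraries all lay above, where 7.90% of all entries did so. Without 12 h, 14 of 44 entries had both regenerating libraries above (22.8% of all entries) and 9 had both hypostome libraries above (28.4%).

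The fit depends on the 12 h library. Without it, edgeR called 89 of 7682 entries higher (1.16%) and 143 lower (1.86%) in regenerating tissue. Of 44 lysosomal entries then tested, 1 rose: LAMP1 Sc4wPfr_365.g14887, with 446 and 359 CPM at 0 h and 4 h, against 155 and 164 CPM in the hypostome, for which edgeR gave a log2 fold change of 1.46 and an adjusted p of 0.0448. With every deposited barcode used and 12 h kept, its log2 fold change was -0.70. At an unadjusted p under 0.05 were 12 of the 44, where 21.1% of all entries were. The median log2 fold change over the 44 was 0.14, beside 0.05 over all entries.

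Nematocyte and neuronal markers differed between these tissues, while those of gland cells differed between the hypostome replicates. Entries of nematocyte genes, the stinging cells, summed to 4498, 4925 and 493 CPM at 0, 4 and 12 h, against 24947 and 15011 CPM in the hypostome, with all 22 entries detected. Neuronal entries summed to 1046, 1070.5 and 797 CPM, against 11481 and 2813 CPM, and digestive enzymes of gland cells to 7454, 4669 and 398 CPM, against 966 and 7189 CPM. In hypostome replicate 2, 1 barcode held 1161 of the gland enzyme counts, in a library of 213647 counts. The part of these cell types in the lysosomal levels was not tested.

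The relation between tissues changed with the size of the barcodes. In the smaller barcodes used, those of at least 200 but under 500 genes, the lysosomal entries held 1.35% of counts at 0 h, 0.890% at 4 h and 0.122% at 12 h, against 1.14% and 1.10% in the hypostome. In barcodes with at least 500 genes they held 0.633%, 0.453% and 0.228%, against 0.832% and 0.792% in the hypostome. In the barcodes under 200 genes, which were not used elsewhere, they held 1.38%, 0.836% and 0.106%, against 1.69% and 1.58% in the hypostome. So 0 h lay above the hypostome only in the middle of the 3 size classes, while 4 h and 12 h lay below it in all 3. The smaller barcodes supplied 843653 of the counts at 0 h and 33000 and 53198 in the hypostome libraries, beside 365960 at 0 h and 96433 and 160449 from the larger ones. The log2 ratio of the mean summed level, regenerating over hypostome, was -0.36 over all barcodes used and -0.89 over those with at least 500 genes, and it turned to 0.10 without the 12 h library.

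**Figure D3:**
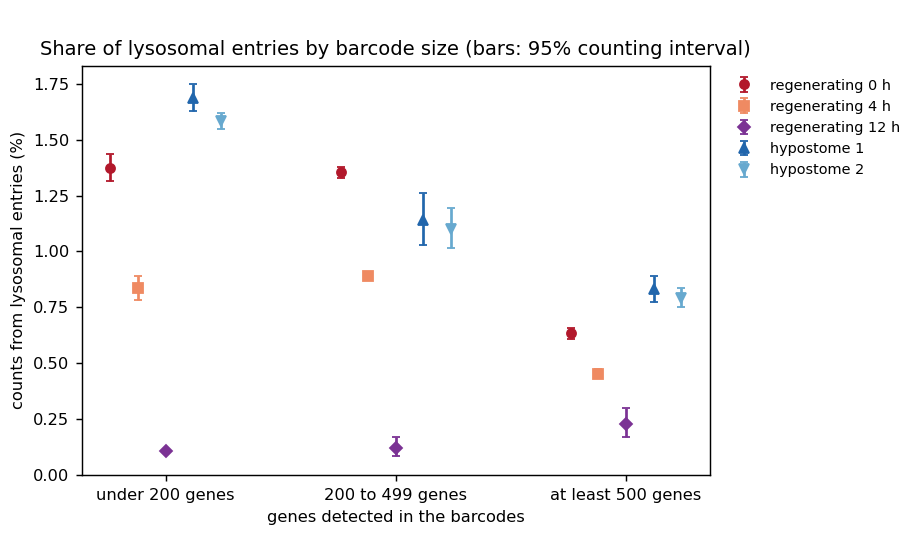
Share of counts from lysosomal entries, in percent, by the number of genes detected in the barcodes, for each library, with 95% exact binomial intervals. At 0 h the share is 1.35% in barcodes of at least 200 but under 500 genes and 0.633% in those of at least 500 genes, and at 12 h it stays at or below 0.228% in every size class.

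The second question was how the levels change with time after the cut. Each time has 1 library, so no test between times was run, and the intervals cover counting error only. At 4 h the summed level was 1.47-fold lower than at 0 h (1.43 to 1.51). Of the 36 lysosomal entries with at least 50 counts over both libraries, 0 were at least 2-fold higher (3.99% of all 5569 entries compared) and 4 were at least 2-fold lower (4.42%). None reached 4-fold in either direction, where 1.13% of all entries were higher and 0.215% lower. The 4 were the cathepsin L1-like Sc4wPfr_246.g4335, 2.69-fold lower (2.40 to 3.02), Sc4wPfr_2442.g25376, 2.56-fold lower (2.22 to 2.96), and Sc4wPfr_1040.g7609, 2.32-fold lower (2.14 to 2.51), and the GM2 activator Sc4wPfr_1400.g6659, 2.37-fold lower (1.81 to 3.11). MSTRG.9153 was 1.69-fold lower (1.60 to 1.79) and cathepsin B was 1.23-fold lower (1.13 to 1.33). The median log2 ratio over the 36 was -0.27, beside -0.20 over all entries compared.

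At 12 h the summed level was 6.80-fold lower than at 0 h (5.52 to 8.49). Of 29 entries compared, 0 were at least 2-fold higher (8.78% of 3086) and 16 at least 2-fold lower (22.7%). At least 4-fold lower were 9, where 6.71% of all entries were, 0 were at least 4-fold higher (4.37%), and 15 had no count at 12 h. With 0 counts at 12 h and a floor of 3 counts, MSTRG.9153 was at least 41.4-fold lower, Sc4wPfr_1040.g7609 at least 25.5-fold lower and Sc4wPfr_246.g4335 at least 13.2-fold lower. The 2-sided exact 95% intervals of these 3 ratios begin at 33.6, 20.7 and 10.7. Cathepsin B had 2 counts, a ratio of 24.9-fold lower with an interval of 6.87 to 206. LAMP1 MSTRG.13737, with 10 counts, was 5.50-fold lower (2.98 to 11.5). The highest ratio was that of hexosaminidase alpha subunit-like Sc4wPfr_952.1.g9524, which stood at 75.9 CPM at 12 h from 4 counts, against 49.6 CPM at 0 h. It was singled out after its values were seen.

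The low level at 12 h was also present in the barcodes below the limit of 200 genes, which hold most of that library. In 821169 counts from 4347 such barcodes, the lysosomal entries held 0.106%. At 0 h the same class of barcodes held 1.38% in 150197 counts. Cathepsin L1-like entries made up 5.98% of the lysosomal counts in these barcodes at 12 h, against 57.1% at 0 h.

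The third question was whether lysosomal transcripts occur in the same barcodes as the defence transcripts, meaning the arminins and the Kazal-type protease inhibitors. The table has 12 arminin and 9 Kazal entries and 0 hydramacin entries. Only barcodes with at least 500 genes were used. A barcode was called defence-rich when these entries held at least 0.2% of its counts, a limit chosen after the data were seen because the planned 1% was reached by 1 barcode in 1 library. The lysosomal shares at that limit were in view when it was chosen. The differences between the sets given below, with their p-values, are therefore descriptions and not an independent test. The 0 h library had 9 defence-rich barcodes among 94, the 4 h library had 8 among 111, and the 12 h library had 0 among 13 (exact binomial upper limit 24.7%). The hypostome replicates had 4 among 42 and 7 among 50. The 12 h library therefore dropped out of this comparison. The barcodes just inside the limit had 0.207% to 0.237% and those just outside 0.136% to 0.166% of defence counts. In defence-rich barcodes the arminins gave 75, 150, 24 and 52 counts and the Kazal entries 31, 22, 10 and 13, at 0 h, at 4 h and in the hypostome replicates. With the arminins alone, 4, 7, 1 and 4 barcodes reached the limit, and hypostome replicate 1 had too few to be used. The sets thus depend in part on the Kazal entries.

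Lysosomal transcripts, those of cathepsins above all, took a larger share of defence-rich than of other barcodes in all 4 libraries. Lysosomal entries held 3.79% of the counts of defence-rich barcodes at 0 h (95% interval 3.57% to 4.02%), against 0.366% (0.346% to 0.387%) of the counts of the other barcodes. At 4 h they held 2.58% (2.38% to 2.79%), against 0.329% (0.312% to 0.347%). In the hypostome they held 4.44% (4.02% to 4.90%), against 0.468% (0.424% to 0.515%), in replicate 1, and 2.53% (2.32% to 2.76%), against 0.545% (0.507% to 0.585%), in replicate 2. The share was thus between 4.65 and 10.3 times as high in defence-rich barcodes. These intervals cover counting error only and leave out the spread between barcodes, which was wide. Single defence-rich barcodes ran from 0.758% to 4.80% with a median of 2.22% at 0 h, against 0.0586% to 2.58% with a median of 0.398% in the other barcodes. At 4 h they ran from 0.542% to 4.14% with a median of 1.41%, against 0.0682% to 1.87% with a median of 0.378%. In hypostome replicate 1 they ran from 0.751% to 5.39% with a median of 3.59%, against 0% to 3.48% with a median of 0.461%, and in replicate 2 from 0.318% to 3.82% with a median of 2.10%, against 0.127% to 2.44% with a median of 0.470%. The ranges thus overlapped in every library, while the medians of defence-rich barcodes were higher in all 4.

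**Figure D4:**
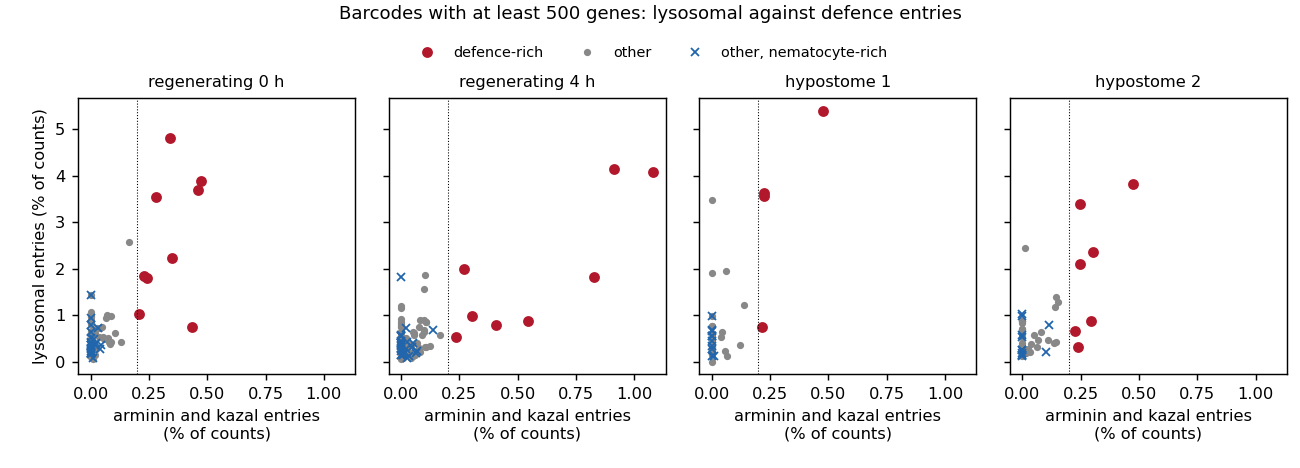
Share of counts from lysosomal entries against the share from arminin and Kazal entries, both in percent, for each barcode with at least 500 genes in the 4 libraries with defence-rich barcodes. The dotted line is the limit of 0.2%. Most points left of it lie below 1%, and the defence-rich barcodes at 0 h have a median of 2.22%.

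The relation also held in the other direction in part. Of the barcodes with at least 2% lysosomal counts, the 0 h library had 6, of which 5 were defence-rich, the 4 h library had 2, both defence-rich, and the hypostome replicates had 4 and 5, of which 3 and 4 were. Spearman's rho between thinned lysosomal and defence counts, with each barcode reduced to 500 counts, was 0.46 over 94 barcodes at 0 h, 0.24 over 111 at 4 h, and 0.44 over 42 and 0.39 over 50 in the hypostome. These are descriptions, since barcodes of 1 library share their preparation and most had 0 or 1 defence count.

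The edgeR test on counts summed per library and barcode set, with the library as block, compared 710 entries. It called 99 entries higher (13.9%) and 61 lower (8.59%) in defence-rich barcodes, and DESeq2 called 11.3% higher and 9.86% lower. Of 11 lysosomal entries tested, 10 rose and 0 fell: 6 cathepsin L1-like, 2 cathepsin Z-like, cathepsin B and LAMP1. The filter on low counts favours this outcome, because 7 of the 11 reached its level of 172 CPM in every defence-rich sum but not in every sum of other barcodes, so this count is a description and not support. Without the filter, 106 lysosomal entries were tested, 8 rose, where 0.385% of 27803 entries did, and 2 fell, where 2.09% did.

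MSTRG.9153 stood at 11797 and 7488 CPM in defence-rich barcodes at 0 h and 4 h, against 213 and 208 CPM in the other barcodes. In the hypostome it stood at 14174 and 7926 CPM in defence-rich barcodes, against 639 and 434 CPM in the other barcodes. Every defence-rich sum was at least 18.3 times its partner, and the log2 fold change was 5.12 with an SE of 0.33 (edgeR, adjusted p = 4.08e-07), or 3.69 without the filter. It was 1.90 when barcodes with at least 200 genes entered (adjusted p = 0.00261, edgeR), the lowest of the settings tried. The largest fold change was that of Sc4wPfr_246.g4335, with 2941, 1819, 3515 and 2609 CPM in defence-rich barcodes at 0 h, at 4 h and in the hypostome replicates, against 77.1, 24.7, 126 and 49.8 CPM in the other barcodes (log2 5.66, SE 0.35, adjusted p = 4.08e-07, edgeR). Its sums in other barcodes all lay under the filter's level of 172 CPM, and its log2 fold change was 4.26 without the filter. Of the other cathepsin L1-like entries, Sc4wPfr_246.g4334 rose by 5.42, Sc4wPfr_1040.g7609 by 4.81 and Sc4wPfr_2442.g25376 by 4.34 on the log2 scale. Without the filter these values were 4.00, 3.39 and 2.94.

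Cathepsin B MSTRG.20568 stood at 3151, 3215, 3629 and 2207 CPM in defence-rich barcodes at 0 h, at 4 h and in the hypostome replicates, against 222, 168, 319.6 and 270.4 CPM in the other barcodes (log2 3.88, SE 0.29, adjusted p = 1.1e-06, edgeR). Its log2 fold change was 2.46 without the filter and 1.48 with barcodes of at least 200 genes (adjusted p = 0.00531, edgeR). Cathepsin Z-like Sc4wPfr_1085.g19577 rose by 5.08 on the log2 scale, or 3.67 without the filter, from few counts, 38 in defence-rich and 13 in other barcodes. The other cathepsin Z-like entry, MSTRG.1272, rose by 2.69 and the cathepsin L1-like Sc4wPfr_1040.g7621 by 2.29. LAMP1 MSTRG.13737 rose least, by 1.99 (SE 0.25, adjusted p = 5.62e-05, edgeR), with 3816, 2031, 4649 and 2759 CPM in defence-rich barcodes, against 827, 833, 982 and 1068 CPM in the other barcodes. These last 3 calls were lost without the filter, where MSTRG.13737 had an adjusted p of 0.842, Sc4wPfr_1040.g7621 of 0.777 and MSTRG.1272 of 0.286 (edgeR). LAMP1-like Sc4wPfr_378.g22734 did not pass the filter and was called without it (log2 3.28, adjusted p = 0.00447, edgeR). It had 455, 169, 227 and 201 CPM in defence-rich barcodes, against 8.89, 12.4, 11.4 and 14.2 CPM in the others, from 23 and 11 counts.

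**Figure D5:**
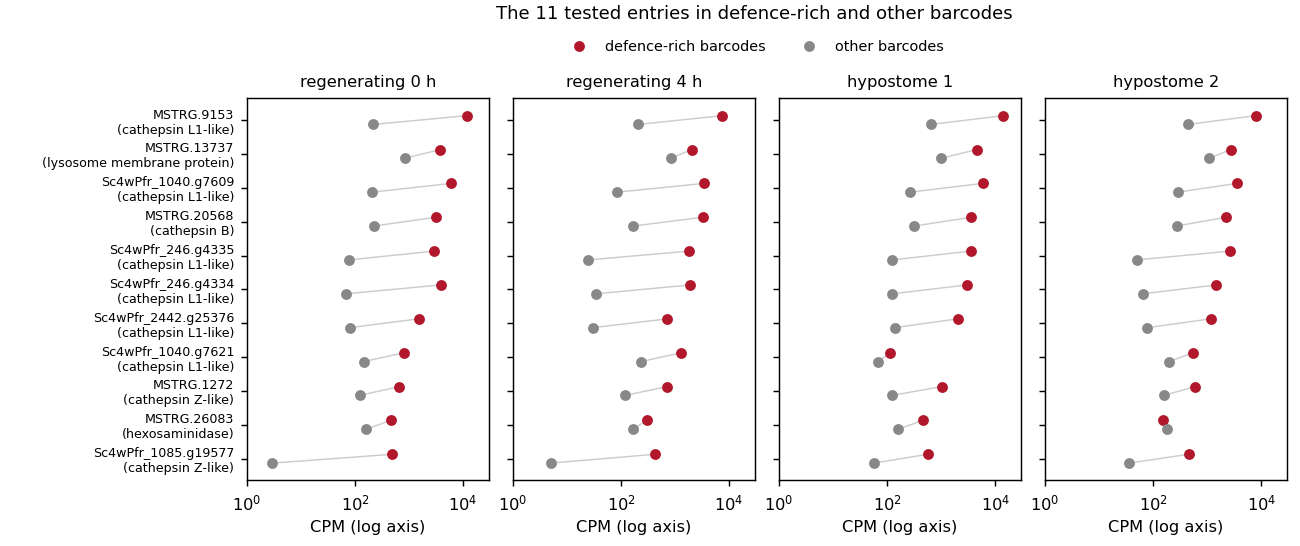
Level in CPM, on a log axis, of the 11 tested lysosomal entries in defence-rich barcodes (red) and other barcodes (grey) of each library. The red point of MSTRG.9153 lies between 7488 and 14174 CPM, and that of hexosaminidase MSTRG.26083 lies below the grey one in hypostome 2.

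Fold differences between the barcode sets ranged widely among the families, and the difference between families was not tested. Hexosaminidase MSTRG.26083, the eleventh entry tested, stood at 455, 296, 454 and 150.5 CPM in defence-rich barcodes at 0 h, at 4 h and in the hypostome replicates, against 160.1, 166, 159.8 and 178 CPM in the other barcodes (log2 1.18, SE 0.49, adjusted p = 0.120, edgeR). Cathepsin L1-like entries made up 65.1% to 71.2% of the lysosomal counts of defence-rich barcodes, against 22.1% to 30.2% in the other barcodes. Lysosome membrane proteins stood at 4586, 2327, 5216 and 3110 CPM in defence-rich barcodes, against 1108.5, 1053, 1164 and 1203 CPM in the other barcodes, so they were 2.21 to 4.48 times as high. The saposins stood at 175, 931, 2041 and 602 CPM, against 267, 208, 285 and 192 CPM, and were higher in defence-rich barcodes everywhere but at 0 h. Without thinning, a saposin count lay in 4 of 9, 2 of 8, 3 of 4 and 4 of 7 defence-rich barcodes, against 34 of 85, 40 of 103, 15 of 38 and 17 of 43 others. Isoform X1 of MSTRG.19696 gave 15 of the 22 saposin counts of defence-rich barcodes at 4 h, and 16 of 18 in hypostome replicate 1. The 125 lysosomal entries that were not tested had 212 counts in defence-rich and 1596 in other barcodes, and their summed ratio of CPM was 1.52, 1.80, 3.24 and 0.724 at 0 h, at 4 h and in hypostome replicates 1 and 2. The last of these was 1.31 (0.896 to 1.86) without the 1 gland-rich barcode described next, an alternative added after the data were seen.

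The summed level of the GM2 activators was lower in defence-rich barcodes in all 4 libraries. The counts there were few, in hypostome replicate 2 this rests on 1 barcode, and detection after thinning did not follow it. Defence-rich barcodes had 2, 1, 0 and 2 counts at 0 h, at 4 h and in the hypostome replicates, against 36, 42, 7 and 176 in the others. All 5 entries together stood at 70.0, 42.3, 0 and 100.3 CPM in defence-rich barcodes at 0 h, at 4 h and in the hypostome replicates, against 107, 104, 79.9 and 1252.5 CPM in the other barcodes. With each barcode thinned to 500 counts, 2 of 9, 1 of 8, 0 of 4 and 1 of 7 defence-rich barcodes held a GM2 activator count. Of the other barcodes, 6 of 85, 4 of 103, 2 of 38 and 1 of 43 did. This share was higher in defence-rich barcodes everywhere but in hypostome replicate 1, from at most 2 barcodes. In replicate 2, 1 barcode held 174 of the 178 GM2 activator counts found in barcodes with at least 500 genes. That barcode had 7705 counts in all, of which 1161 came from digestive enzymes of gland cells such as chymotrypsin and elastase, or 150681 CPM, against 557 CPM in the rest. Without it the GM2 activators stood there at 100.3 CPM in defence-rich and 15.1 CPM in other barcodes, from 2 counts in each. In the fit without the filter, Sc4wPfr_1400.g6659 fell by 4.88 (adjusted p = 0.0204) and Sc4wPfr_2387.g9460 fell by 3.22 (adjusted p = 0.0329, edgeR), from 1 and 3 counts in defence-rich barcodes, against 113 and 140 in the others. That barcode held 99 of the 113 and 69 of the 140. Without it both calls were lost, with log2 fold changes of -1.34 (adjusted p = 0.902) and -1.70 (adjusted p = 0.694, edgeR), and 8 of 106 lysosomal entries rose and 0 fell. At 0 h and 4 h the counts were spread thinly instead: 871 counts lay in 663 of 2332 barcodes with at least 200 genes at 0 h and at most 6 in any one, and 798 lay in 588 of 2782 at 4 h and at most 5 in any one.

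Detection per barcode was compared after thinning every barcode to 500 counts, because defence-rich barcodes held fewer counts: medians of 1305, 1586.5, 1141.5 and 1785, against 2657, 2400, 1794 and 2568 in the other barcodes, at 0 h, at 4 h and in the hypostome replicates. A cathepsin L1-like count was then found in 9 of 9, 7 of 8, 4 of 4 and 5 of 7 defence-rich barcodes, against 40 of 85, 39 of 103, 13 of 38 and 21 of 43 other barcodes. Without thinning the numbers were 9, 8, 4 and 6 defence-rich barcodes, against 75, 88, 30 and 38 other barcodes. Nematocytes are cells not known for intracellular digestion. Barcodes rich in their transcripts and not defence-rich had a cathepsin L1-like count after thinning in 10 of 23, 10 of 25, 3 of 10 and 7 of 12. These barcodes are themselves among the other barcodes, whose shares were close to this level. At 0 h, 2 of the 9 defence-rich barcodes were also nematocyte-rich and are left out of these numbers. The nematocyte-rich barcodes that were not defence-rich had median totals of 2973, 3275, 1810.0 and 2325.5 counts and lysosomal shares of 0.351%, 0.290%, 0.347% and 0.326%.

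The difference between barcode sets was not shown to depend on tissue. A term for that dependence, added after the data were seen, was called for 0 of 710 entries by edgeR, with 55 at an unadjusted p under 0.05. Of the 11 lysosomal entries 4 had an unadjusted p under 0.05, all with a larger difference in regenerating tissue, and the smallest adjusted p was 0.419.

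Other genes of the pathway were taken from lists of names. The proton pump that acidifies lysosomes had 25 entries with summed levels of 1404, 1189 and 398 CPM at 0, 4 and 12 h, against 1507 and 1077 CPM in the hypostome. Of these, 0 of 7 were called between tissues by edgeR, with 0 at an unadjusted p under 0.05, and 0 of 2 between barcode sets (DESeq2 was not counted for these lists). Among 34 entries for sorting and uptake, 0 of 2 were called between tissues, and the 1 tested between barcode sets rose: Rab7 MSTRG.16636, a small GTPase of late endosomes, by 2.04 on the log2 scale (edgeR, adjusted p = 0.0033). Of 114 further hydrolase entries, 8 of which are also in the lysosomal list, 0 of 4 were called between tissues and none was tested between barcode sets. Of 34 autophagy entries, 0 of 1 were called in either comparison. Without 12 h, 1 of 9 autophagy entries fell between tissues, with 3 at an unadjusted p under 0.05, while edgeR called 0 of 15 proton pump entries, 0 of 9 for sorting and uptake and 0 of 18 further hydrolases, with 0, 1 and 1 at an unadjusted p under 0.05.

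Cystatins, inhibitors of cysteine proteases such as the cathepsins, had 13 entries. They summed to 518, 676 and 94.9 CPM at 0, 4 and 12 h, against 139 and 173 CPM in the hypostome. Of 3 tested between tissues 0 were called by edgeR, with 2 at an unadjusted p under 0.05, and without 12 h 1 of 4 rose. In defence-rich barcodes the 1 cystatin tested, Sc4wPfr_59.2.g12462, rose by 4.22 on the log2 scale (edgeR, adjusted p = 2e-04).

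Markers of other cell types gave a check of the barcode sets. All 6 nematocyte entries tested fell in defence-rich barcodes, and the 22 summed to 700.1, 169, 227 and 50.2 CPM there, against 11503, 12260, 29345 and 18788 CPM in the other barcodes. The defence-rich sets were not free of them: 4 of 9, 2 of 8, 1 of 4 and 1 of 7 barcodes held a nematocyte count. At 0 h, 2 of the 9 were nematocyte-rich. Of the other barcodes, 53 of 85, 74 of 103, 18 of 38 and 21 of 43 held such a count. Digestive enzymes of gland cells stood at 1120, 1481, 340.2 and 752 CPM, against 1675, 956, 319.6 and 8761 CPM, where the last value was 527 CPM without the 1 gland-rich barcode, and 0 of 2 tested were called by edgeR, with 1 at an unadjusted p under 0.05. A second gland cell list, which includes mucins, had 105 entries, and both of the 2 tested fell. They were mucin-2-like Sc4wPfr_301.g13989 (log2 -9.62, adjusted p = 2.27e-04, edgeR) and mucin-17-like Sc4wPfr_786.g1722 (log2 -3.46, adjusted p = 7.82e-04, edgeR). Neuronal entries stood at 1190, 1015, 2041 and 1204 CPM, against 1153, 1288, 13137 and 2904 CPM, and 0 of 2 tested were called. Of 4 ectodermal epithelial or peroxidase entries tested, 1 rose and 2 fell. The sums of that list lay close together, at 3081, 2623, 2721 and 1254 CPM, against 3151, 2798, 2260 and 1544 CPM. Stem cell and division entries, of which 0 were tested, stood at 210, 169, 567 and 451 CPM, against 474, 400, 502 and 334 CPM.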

How the data were processed

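The authors deposited whole-number counts per entry and cell barcode for each of the 5 libraries, with no scaling. Kallisto 0.46.1 is named in the submitters' processing notes. The genome build, the annotation, and whether the counts are molecules or reads are not given in the sources used here. The lysosomal entries and all other lists were chosen with earlier results of these data known.

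Counts were summed per library over barcodes with at least 200 genes, without MSTRG.22171, to between 52713 and 1605812 counts. Regenerating and hypostome libraries were compared with edgeR 4.0.16 in R 4.3.3 (TMM scaling, filterByExpr, quasi-likelihood test, Benjamini-Hochberg adjustment at 0.05). DESeq2 1.42.0 was the alternative. The 3 time points share 1 side, which leaves 3 residual degrees of freedom. Both fits were tested on simulated data. Ratios between single libraries carry exact conditional binomial intervals at 95%, and a floor of 3 counts stands for a count under 3 when entries past 2-fold are counted.

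Defence-rich and other barcodes with at least 500 genes were compared with the library as block, because both sums come from the same library. The planned limit of 1% of counts and 5 barcodes a set was replaced by 0.2% and 3 barcodes after the data were seen, with the lysosomal shares at that limit in view. The planned comparison with gland-rich barcodes was not run, since at most 1 barcode a library passed its limit. Entries named were the 20 with the highest mean CPM, those called, and the largest ratios in each comparison. Barcode thinning used Python 3.11.15 and numpy 2.4.6, and intervals scipy 1.17.1.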

Additional observations from a re-analysis of the deposited data

Results flagged for a closer look

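Barcodes with fewer than 200 detected genes were left out of the comparisons, yet they held lysosomal counts well above 0. Their share of counts from lysosomal entries was 1.38% at 0 h, 0.836% at 4 h and 0.106% at 12 h, and 1.69% and 1.58% in hypostome replicates 1 and 2. These barcodes held 150197, 115261 and 821169 counts at 0, 4 and 12 h, and 177124 and 472256 in the hypostome. Cathepsin L1-like entries made up 57.1%, 46.2% and 5.98% of these lysosomal counts at 0, 4 and 12 h, and 61.0% and 62.0% in the hypostome.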

How the results depend on the processing

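Between tissues, edgeR called 0 entries; DESeq2 called 100, the fit without a gene filter 10, and fits leaving out 1 library 0 to 232, the highest without 12 h, and 0 to 1 lysosomal entries. The log2 ratio of the summed level, -0.36, was -0.61 with MSTRG.22171 kept, -0.99 over all deposited barcodes and -0.89 over barcodes with at least 500 genes, and -0.92 (without 0 h) to 0.10 (without 12 h) leaving out 1 library. Over all deposited barcodes, the signs of Sc4wPfr_365.g14887 (-0.70), MSTRG.14057 (-0.13), isoform X2 of MSTRG.19696 (-0.67) and Sc4wPfr_378.g22734 (-1.09) reversed, and so did MSTRG.26083 between barcode sets without a gene filter (-0.22). The cause was not tested. No paired analysis was possible because each regenerating time has 1 library and its label gives no replicate number; between barcode sets the pairing is the library itself, and without the replicate block 144 entries and 11 lysosomal ones were called, against 160 and 10 with it. There, 689 entries were called without the gene filter, 702 without it and without the 1 gland-rich barcode of hypostome replicate 2 (MSTRG.26083 also at -0.22), and 48 with defence-rich defined as at least 2 defence counts, and 130 to 206 entries and 10 to 11 lysosomal ones leaving out 1 library. The latter definition and barcodes with at least 200 genes left 7 and 8 lysosomal entries called. Lysosomal entries past 2-fold at 4 h numbered 4, but 8 with a minimum of 20 counts, 12 with MSTRG.22171 kept and 0 at 4-fold; at 12 h they numbered 16, but 35 over all deposited barcodes, 7 over barcodes with at least 500 genes and 9 at 4-fold. The summed log2 ratio of 4 h over 0 h, -0.55, was -0.35 with TMM factors, -0.99 with MSTRG.22171 kept and -0.48 over barcodes with at least 500 genes. Limits of 0.5% and 2% for a defence-rich barcode could not be used. At 12 h 3 counts equal 56.9 CPM, which limits what can be seen there, and hypostome replicate 1 has only 4 defence-rich barcodes.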
